A study of Ovis aries with 8 samples.

Results

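Adrenergic and cAMP signalling genes were examined in the perirenal fat, the adipose depot beside the kidney, of male lambs at 12 weeks of age. The members are 9 genes chosen by symbol: the receptors ADRB1, ADRB3 and ADRA2A, the G protein gene GNAS, the protein kinase A genes PRKACA, PRKACB, PRKAR1A and PRKAR2B, and the phosphodiesterase gene PDE3B. Of these 9 genes, 8 had at least 1 probe set carrying their symbol on the array, and together they had 13 of the 24016 probe sets tested, which hold 9155 genes with a symbol. No probe set carried the symbol PDE3B, and this gene was not measured here. Lambs of the NmatCpat genotype carried 1 copy of the mutation, with the Callipyge allele inherited from the sire and the normal allele from the dam (n = 4). They were compared with lambs of the NmatNpat genotype, with a normal allele from each parent (n = 4). All were Dorset/Suffolk/Rambouillet cross-bred lambs, and each gave 1 sample and 1 array. The array was the Affymetrix Bovine Genome Array, whose probes were designed on cattle sequence, so that a sheep transcript that differs from the cattle one can read dim. Whole tissue was extracted, and fewer cells of a type and less RNA per cell cannot be told apart in these values.

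In fat cells, noradrenaline from sympathetic nerves and adrenaline from the blood bind adrenergic receptors on the cell surface. Beta receptors act through the stimulatory G protein to switch on adenylyl cyclase, which makes cyclic AMP (cAMP), whereas alpha-2 receptors act through inhibitory G proteins and lower it. cAMP binds the regulatory subunits of protein kinase A and frees its catalytic subunits, which phosphorylate hormone-sensitive lipase and perilipin and so start the breakdown of stored triglyceride. Phosphodiesterases degrade cAMP, and PDE3B is the enzyme through which insulin restrains lipolysis in this tissue.

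The arrays were alike in brightness, with medians of 65.3 to 72.6 on the deposited linear scale, and pairs of arrays correlated at 0.891 to 0.923 after normalization. All values below are normalized log2 intensities, and a difference is the NmatCpat mean minus the NmatNpat mean, so that 1 unit is a 2-fold change. The adipocyte markers read bright in every lamb: PPARG spanned 11.86 to 12.32 in NmatCpat lambs and 12.02 to 12.35 in NmatNpat lambs, and CIDEC spanned 11.21 to 11.46 in NmatCpat lambs and 11.14 to 11.63 in NmatNpat lambs. LEP, leptin, read dim, with 3.84 to 5.50 in NmatCpat lambs and 3.80 to 5.78 in NmatNpat lambs. The adipocyte list as a whole (5 of 6 genes measured) did not separate the genotypes, by an exact permutation test (p = 0.77), as the mean deviations were -0.26 to 0.17 in NmatCpat lambs and -0.24 to 0.17 in NmatNpat lambs. The array of NmatNpat animal 1 stood apart in neuron transcripts. All 6 measured genes of a 7-gene neuron list were highest there, and their summed linear intensity was 19560, while it was 178 to 296 in NmatCpat lambs and at most 550 in the other 3 NmatNpat lambs. Skeletal muscle markers had a mean deviation of 1.61 in NmatCpat animal 4, against -0.63 to 0.04 in the other lambs, although their summed intensity overlapped between the genotypes (3648 to 5867 in NmatCpat lambs, 4393 to 6738 in NmatNpat lambs). Values without these arrays are given where they moved a result most.

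Among the 8 measured genes, PRKACB passed the study's thresholds (P no higher than 0.05, with more than a 1.5-fold change), and the other 7 did not. PRKACB was 2.18-fold lower in NmatCpat lambs. This was 1 of 8 genes, or 12.5%, where 2.91% of all genes passed on their brightest probe set, 1.52% lower and 1.39% higher in NmatCpat lambs. Counted over probe sets it was 1 of 13, where 3.93% of all probe sets passed. With so few genes, the share rests on PRKACB alone. After Benjamini-Hochberg adjustment over all probe sets none of the 8 passed with limma, at adjusted p-values of 0.983 to 0.998, and neither did any of the 24016 probe sets, of which 1118 had an unadjusted P of at most 0.05. The genotypes overlapped on all 13 probe sets of the members, whereas they did not overlap for 2.84% of all genes. The difference was negative for 5 members and positive for 3, with a median of -0.04, against 0.0046 over all genes. The 95% interval of the difference excluded a 2-fold change in either direction for 5 members and a 1.5-fold change for 3, ADRB3, GNAS and PRKAR1A.

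**Figure D1:**
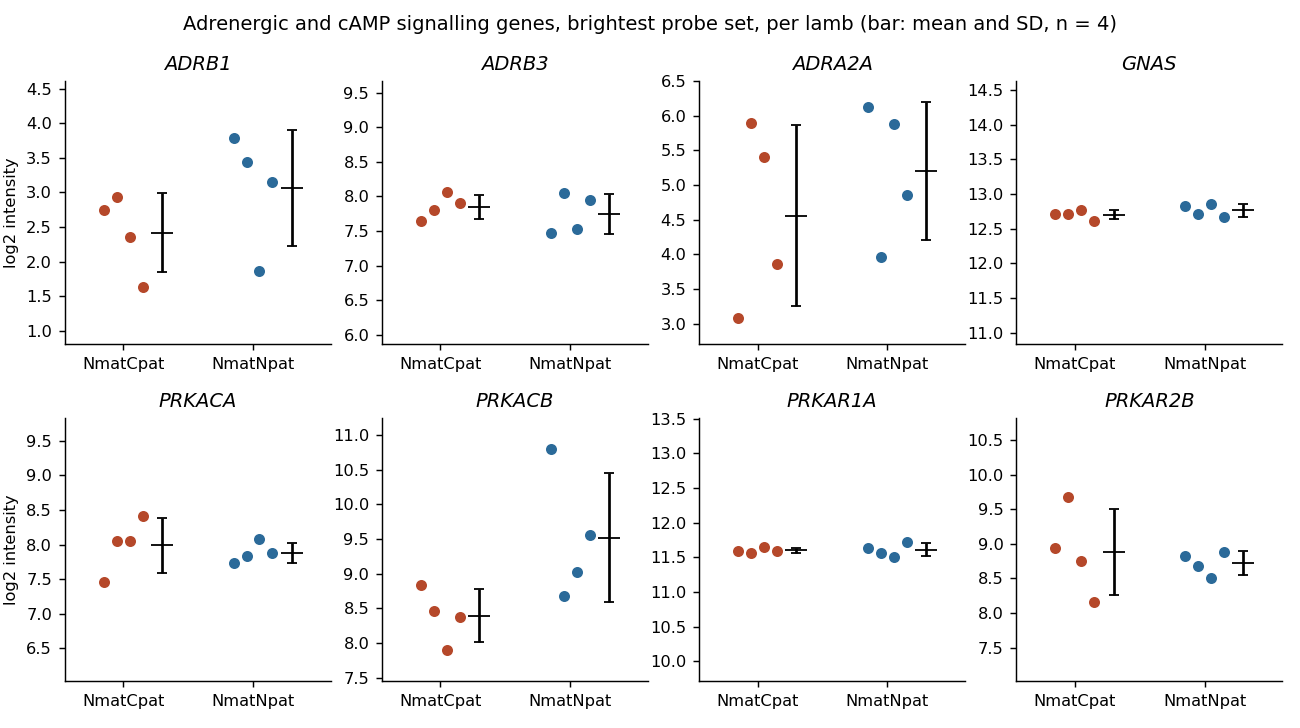
Normalized log2 intensity (vertical axis, the same span of units in every panel) of the brightest probe set of 8 adrenergic and cAMP signalling genes in NmatCpat (red, left) and NmatNpat (blue, right) lambs, 1 point per lamb in the order of animal number, with the mean and SD of 4 lambs at the right of each group. The genotypes overlap in every panel, and the PRKACB point of NmatNpat animal 1, at 10.80, lies above all others of that gene.

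ADRB3, the beta-3 adrenergic receptor, is the beta receptor most confined to adipocytes in rodents. It read 7.65, 7.80, 8.06 and 7.91 in NmatCpat lambs 1 to 4, against 7.47, 8.05, 7.53 and 7.95 in NmatNpat lambs 1 to 4. The groups overlapped over nearly their whole ranges. The means were 7.85 ± 0.173 in NmatCpat and 7.75 ± 0.288 in NmatNpat lambs (SD, n = 4 each). The difference was 0.10 with a standard error of 0.20 and a 95% interval of -0.35 to 0.56 (limma, adjusted p = 0.99; exact permutation test, p = 0.57). A change of 1.5-fold in either direction lay outside this interval, although a smaller one did not.

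ADRB1, the beta-1 receptor, read 2.75, 2.94, 2.36 and 1.64 in NmatCpat lambs, against 3.78, 3.44, 1.87 and 3.16 in NmatNpat lambs. Its deposited intensities lay between 3.2 and 7.4 in NmatCpat lambs and between 3.4 and 14.7 in NmatNpat lambs, which placed it at percentile 7.87 of all probe sets by level. Among the dimmest 25% of probe sets the median SD within genotypes was 1.07, against 0.233 among the brightest 25%, so that the array was least precise here. NmatCpat lambs averaged 2.42 ± 0.576 and NmatNpat lambs 3.06 ± 0.836 (SD, n = 4 each). The difference of -0.64 had a standard error of 0.46 and an interval of -1.71 to 0.43 (limma, adjusted p = 0.98; exact permutation test, p = 0.26). The lowest NmatNpat value came from animal 3, and without that lamb the difference was -1.04 and passed both thresholds (limma, unadjusted P = 0.022, adjusted p = 0.96). Other omissions made it smaller: -0.38 without NmatCpat animal 4, -0.40 without NmatNpat animal 1 and -0.14 with both of these left out. An offset of 16 before taking log2, which damps dim values, made it -0.21.

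ADRA2A, the alpha-2A receptor, opposes the beta receptors by lowering cAMP. It read 3.08, 5.90, 5.40 and 3.86 in NmatCpat lambs, against 6.12, 3.96, 5.88 and 4.85 in NmatNpat lambs. Each genotype held lambs near 4 or below and lambs near 6, and the spread within a genotype was larger than the difference between them. The means were 4.56 ± 1.31 in NmatCpat and 5.20 ± 0.998 in NmatNpat lambs (SD, n = 4 each). The interval of the difference, -2.34 to 1.05 around -0.64 (standard error 0.73), was the widest among the 8 genes on their brightest probe set and did not exclude a change of 2-fold in either direction (limma, adjusted p = 0.98; exact permutation test, p = 0.46). Its size depended on single lambs, running from -0.15 on omitting NmatCpat animal 1 to -1.09 on omitting NmatCpat animal 2. It was -1.06 on omitting NmatNpat animal 2, -0.34 to -0.42 on omitting NmatCpat animal 4, NmatNpat animal 1 or NmatNpat animal 3, and -0.10 with NmatNpat animal 1 and NmatCpat animal 4 both left out. An offset of 16 made it -0.37.

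GNAS encodes the alpha subunit of the stimulatory G protein, from a locus that gives several transcripts, and 5 probe sets carried its symbol. On the brightest it read 12.72, 12.72, 12.77 and 12.61 in NmatCpat lambs, against 12.83, 12.71, 12.86 and 12.67 in NmatNpat lambs. All 8 lambs lay within 0.25 of each other, at a level near the top of the array. The difference was -0.06 with a standard error of 0.14 and an interval of -0.39 to 0.27 (limma, adjusted p = 0.99; exact permutation test, p = 0.31). The next probe set had a difference of -0.15, and the dimmest of the 5, which read 3.22 to 5.78, one of -0.17. The fourth, at 3.49 to 5.88, had a difference of 0.34, so the 5 probe sets did not all point one way. The third by level stood apart in 1 lamb. It read 9.0, 9.22, 8.90 and 8.88 in NmatCpat lambs, against 11.04, 9.34, 9.31 and 8.87 in NmatNpat lambs. Its difference of -0.64 (exact permutation test, p = 0.20) came with the value of NmatNpat animal 1, which lay 1.70 above the next lamb. Without that lamb it was -0.17 (standard error 0.20), and with NmatCpat animal 4 also left out it was -0.13. The sources used here do not say which GNAS transcript each probe set reads.

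**Figure D2:**
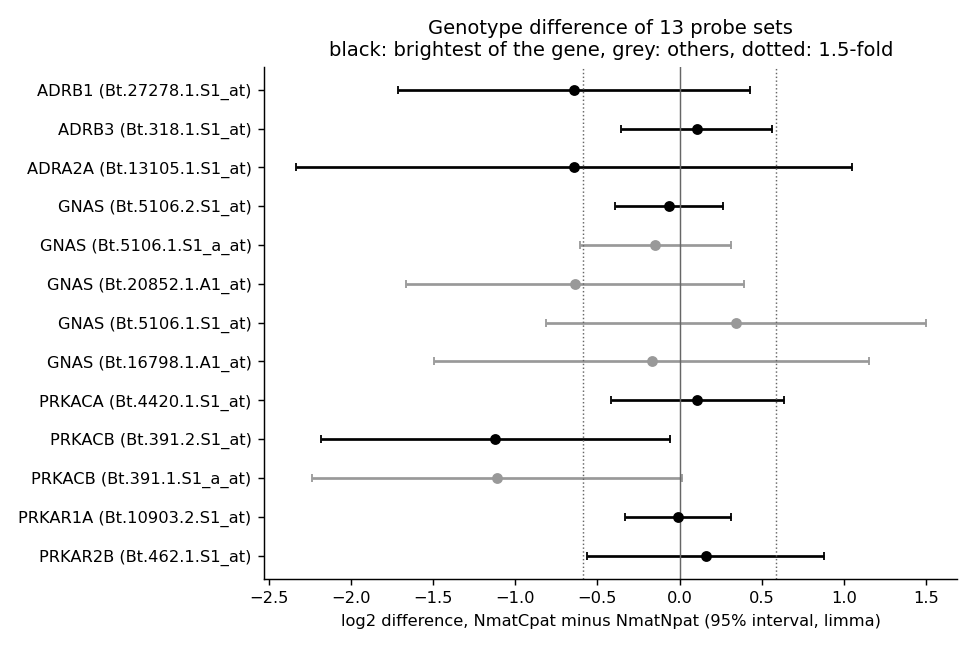
Difference in normalized log2 intensity, NmatCpat minus NmatNpat (horizontal axis), with its 95% interval from limma for the 13 probe sets of 8 genes (black, the brightest of each gene; grey, the others), and dotted lines at a 1.5-fold change. The interval of the brighter PRKACB probe set, -2.18 to -0.06, is the 1 among the 13 that leaves out 0, and the intervals of ADRB3, GNAS and PRKAR1A (brightest probe sets) lie between the dotted lines.

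PRKACA and PRKACB encode the alpha and beta catalytic subunits, the parts of protein kinase A that phosphorylate its targets. PRKACA read 7.45, 8.05, 8.05 and 8.41 in NmatCpat lambs, against 7.74, 7.84, 8.07 and 7.87 in NmatNpat lambs. The lowest and the highest of the 8 values were both in NmatCpat lambs, around narrowly spread NmatNpat lambs. The means were 7.99 ± 0.396 in NmatCpat and 7.88 ± 0.142 in NmatNpat lambs (SD, n = 4 each). The difference was 0.11 with a standard error of 0.23 and an interval of -0.42 to 0.63 (limma, adjusted p = 0.99; exact permutation test, p = 0.69).

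PRKACB read 8.84, 8.46, 7.90 and 8.37 in NmatCpat lambs, against 10.80, 8.68, 9.02 and 9.56 in NmatNpat lambs, when taken from the brighter of 2 probe sets. NmatCpat animal 1 lay above NmatNpat animal 2, and otherwise every NmatCpat lamb lay below every NmatNpat lamb. NmatCpat lambs averaged 8.39 ± 0.385 and NmatNpat lambs 9.52 ± 0.931 (SD, n = 4 each). The difference was -1.12 with a standard error of 0.46 and an interval of -2.18 to -0.06. With limma the unadjusted P was 0.041 and the adjusted p was 0.98, and an exact permutation test gave p = 0.057, above the 0.0286 that is the smallest 4 lambs against 4 allow. The dimmer probe set gave nearly the same difference. It read 6.30, 6.86, 6.07 and 6.02 in NmatCpat lambs, against 8.92, 6.94, 6.99 and 6.84 in NmatNpat lambs. Its difference was -1.11 with a standard error of 0.49 and an interval of -2.24 to 0.01, and it missed the threshold (limma, unadjusted P = 0.052; exact permutation test, p = 0.057). Both probe sets read the same RNA of the same lambs and are not independent of each other.

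NmatNpat animal 1 had the highest PRKACB on both probe sets, 1.24 and 1.93 above the next lamb, and this is the lamb whose array held neuron transcripts. NEFL, a neurofilament subunit of nerve fibres, read 12.1 in that lamb, against 0.54 to 6.09 in the others. The neuron list had a mean deviation of 5.77 in that lamb, and -1.41 to -0.58 in the NmatCpat and -1.28 to 0.85 in the other NmatNpat lambs. Markers of chromaffin cells, the catecholamine-making cells of the adrenal medulla, were highest there in 4 of 5 genes. Their summed intensity was 5766 there, against 1794 to 2861 in the other lambs. CHGA, 1 of the 4, was bright in every lamb, at 11.55 there against 10.66 to 11.38 in the others. PNMT, which makes adrenaline, was not among the 4 and read 5.44 there. Whether these transcripts came from adrenal medulla or from nerve was not tested. Without this lamb the PRKACB difference was -0.69 on the brighter probe set (standard error 0.31, interval -1.42 to 0.03; limma, unadjusted P = 0.059, adjusted p = 0.999) and no longer passed. On the dimmer probe set it was -0.61 (standard error 0.25, interval -1.20 to -0.03; limma, unadjusted P = 0.042, adjusted p = 0.999) and passed. With NmatNpat animal 1 and NmatCpat animal 4 both left out, the differences were -0.69 and -0.52, and neither passed (limma, unadjusted P = 0.10 and 0.096). The direction was kept in each of these fits, at a smaller size.

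The PRKACB call on the brighter probe set was also lost on leaving out NmatCpat animal 2 (-1.14), animal 3 (-0.96) or animal 4 (-1.12), or NmatNpat animal 4 (-1.11), since P then exceeded 0.05. It was kept on leaving out NmatCpat animal 1, at -1.27, and NmatNpat animal 2 or 3, at -1.40 and -1.29. In these fits the difference stayed near or beyond 1 unit while P moved to either side of 0.05.

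**Figure D3:**
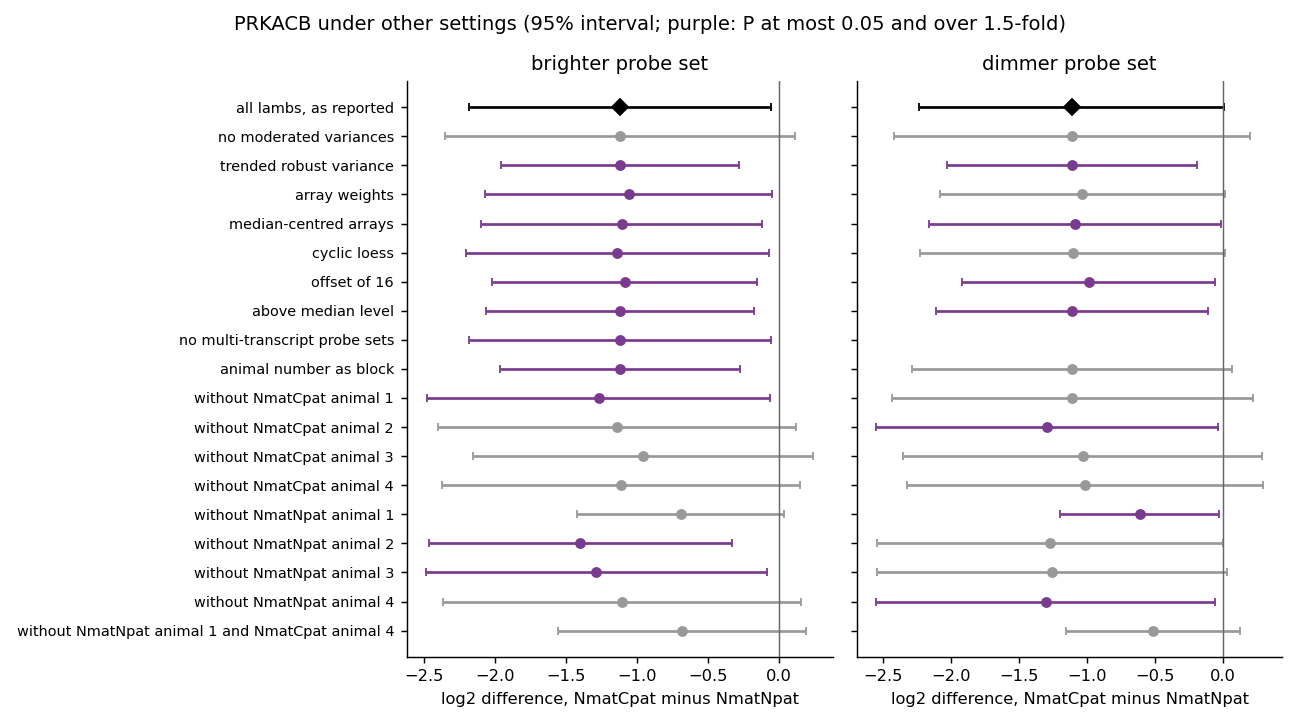
PRKACB difference in normalized log2 intensity, NmatCpat minus NmatNpat (horizontal axes), with its 95% interval on the brighter (left) and dimmer (right) probe set, for the reported fit (black diamond) and each alternative or left-out lamb (purple, P at most 0.05 and over 1.5-fold; grey, not). Every point lies below 0, and those without NmatNpat animal 1 lie closest to 0, at -0.69 (left) and -0.61 (right), or -0.69 and -0.52 without NmatCpat animal 4 as well.

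NmatNpat animal 1 was the highest of the 8 lambs on 6 of the 13 probe sets: ADRB1, ADRA2A, both of PRKACB and 2 of GNAS. On ADRB1 and ADRA2A it exceeded the next lamb by 0.34 and 0.23, which is less than the spread of the other 3 NmatNpat lambs. On the other 7 probe sets, those of ADRB3, PRKACA, PRKAR1A and PRKAR2B and the remaining 3 of GNAS, another lamb was highest. The part of nerve tissue in the PRKACB and GNAS values of this lamb was not tested.

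**Figure D4:**
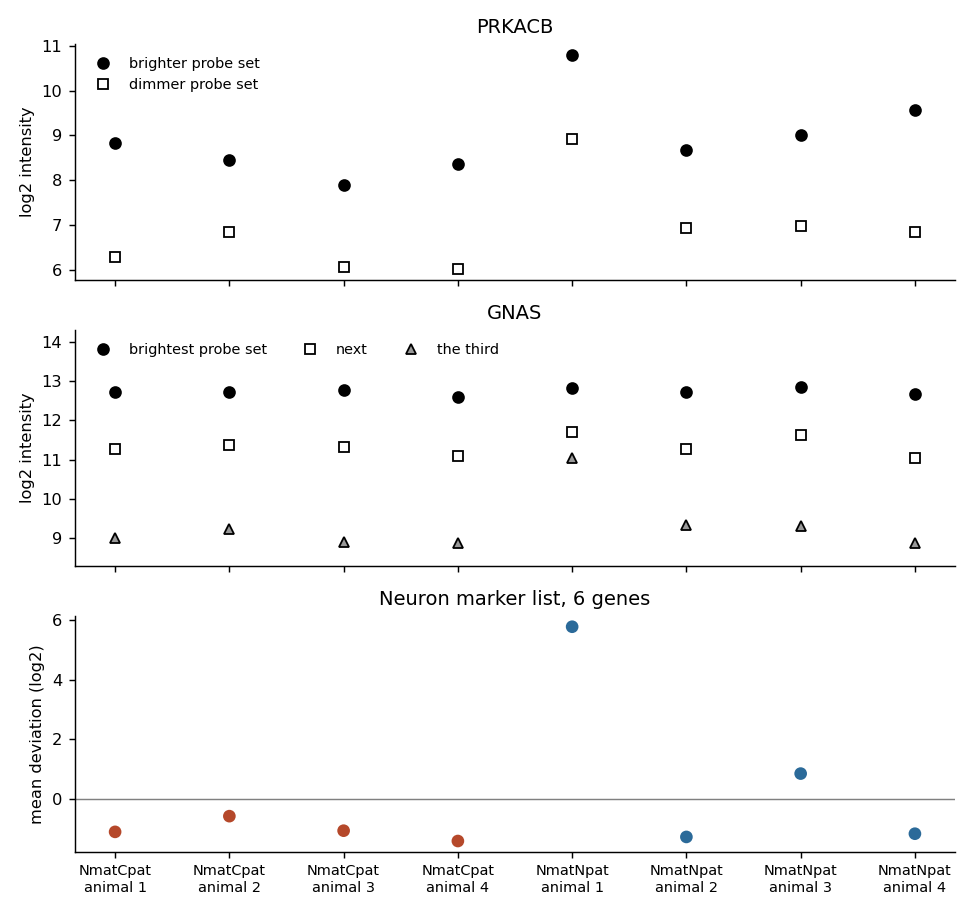
Normalized log2 intensity of PRKACB (top, 2 probe sets) and GNAS (middle, 3 brightest probe sets) and the mean log2 deviation of 6 neuron marker genes (bottom) in each lamb, NmatCpat lambs left of NmatNpat lambs. NmatNpat animal 1 is highest on both PRKACB probe sets (10.80 and 8.92), on the third GNAS probe set (11.04) and in the neuron list (5.77), while its brightest GNAS probe set, at 12.83, is close to the other lambs.

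The regulatory subunits hold protein kinase A inactive until they bind cAMP, and PRKAR2B is the form that predominates in adipose tissue of mice. PRKAR1A read 11.59, 11.56, 11.65 and 11.59 in NmatCpat lambs, against 11.64, 11.57, 11.51 and 11.72 in NmatNpat lambs. This was the steadiest member, with SDs of 0.0368 in NmatCpat and 0.0906 in NmatNpat lambs (n = 4 each). The difference was -0.01 with an interval of -0.33 to 0.31 (limma, adjusted p = 0.998; exact permutation test, p = 0.94). It had no stable sign, and centring the arrays on their medians made it 0.04. The moderated variance, which borrows from all probe sets, set this interval, and with the gene's own variance it was -0.13 to 0.11.

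PRKAR2B read 8.93, 9.67, 8.76 and 8.17 in NmatCpat lambs, against 8.83, 8.68, 8.51 and 8.88 in NmatNpat lambs. The NmatCpat lambs lay on both sides of the narrower NmatNpat range, as for PRKACA. The means were 8.88 ± 0.621 in NmatCpat and 8.72 ± 0.169 in NmatNpat lambs (SD, n = 4 each). The difference was 0.16 with a standard error of 0.31 and an interval of -0.56 to 0.88 (limma, adjusted p = 0.99; exact permutation test, p = 0.69).

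Of the 28 pairs of measured members, none covaried over the 8 lambs after adjustment (two-sided exact permutation tests over pairings, smallest adjusted p = 0.60 for Pearson's r and 0.79 for Spearman's rho). The largest coefficients were between ADRA2A and GNAS (r = 0.66, rho = 0.65, exact permutation p = 0.079 and 0.092), between ADRB1 and PRKACA (r = -0.66, rho = -0.76, exact permutation p = 0.073 and 0.037), and between ADRB3 and PRKACB (r = -0.65, rho = -0.64, exact permutation p = 0.070 and 0.096). Within genotypes these r were 0.62, -0.65 and -0.67. When the 2 lambs farthest from the median of the first-named gene were left out, r was 0.66, -0.22 and -0.24. This step narrows the range of that gene, which can by itself shrink r, so it does not show what a relation rested on. For ADRB1 and PRKACB it raised r from 0.61 to 0.82, with NmatNpat animal 1 kept. Without NmatNpat animal 1 alone, r was 0.32 for that pair and -0.36 for ADRB3 and PRKACB. On the same omission r was 0.57 for ADRA2A and GNAS and -0.63 for ADRB1 and PRKACA. The catalytic subunits gave r = -0.44 and rho = -0.52 (exact permutation p = 0.27 and 0.20).

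Among the 6332 genes whose brightest probe set lay above the median level, those whose pattern over the 8 lambs was most like that of PRKACB were TMEM176B (r = 0.96), RETREG1 (r = 0.96), SLC25A12 (r = 0.95), CETN2 (r = 0.94) and UBXN6 (r = 0.94). These are descriptions over 8 arrays that share NmatNpat animal 1 as their highest point. RETREG1 read 6.51, 6.69, 6.21 and 6.14 in NmatCpat lambs, against 9.44, 6.40, 6.92 and 7.49 in NmatNpat lambs. Without NmatNpat animal 1 the r over 7 lambs were 0.94 for TMEM176B, 0.88 for RETREG1, 0.81 for SLC25A12, 0.80 for CETN2 and 0.80 for UBXN6, and of these 5 genes TMEM176B alone was still among the 5 most alike. TMEM176B read 7.30, 6.83, 6.63 and 6.92 in NmatCpat lambs, against 8.23, 6.80, 7.41 and 7.73 in NmatNpat lambs.

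The other genes of the pathway were taken from a list of 140, of which 87 were measured. Of these, 45 were higher and 42 lower in NmatCpat lambs, with a median difference of 0.01. Past P and fold were 3 genes higher in NmatCpat lambs (ADRA1B, GRK3 and AKAP4) and 0 lower, which is 3.45% beside the 2.91% of all genes. None passed after adjustment (limma), and these 3 were also the genes with an unadjusted P of at most 0.05. All 3 lay below the median level of the array, at percentiles 13.5 (ADRA1B), 38.4 (GRK3) and 40.9 (AKAP4). The interval excluded a 2-fold change for 50 of the 87.

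ADRA1B, an alpha-1 receptor that signals through calcium and not through cAMP, read 3.62, 3.08, 5.52 and 4.29 in NmatCpat lambs, against 3.16, 1.70, 3.47 and 1.87 in NmatNpat lambs. These are dim values that overlapped between genotypes, and the difference was 1.58 (interval 0.15 to 3.0; limma, unadjusted P = 0.034, adjusted p = 0.98; exact permutation test, p = 0.086). The call was lost on omitting NmatCpat animal 3 (1.11), NmatCpat animal 4 (1.52), NmatNpat animal 2 (1.29) or NmatNpat animal 4 (1.35), and when NmatNpat animal 1 and NmatCpat animal 4 were both omitted (1.73). It was also lost without moderated variances (1.58), and an offset of 16 made the difference 0.64, still called. ADRA2C and ADRA1A, the other receptors of the family measured, had differences of 0.32 and 0.07 and did not pass. ADRA1D and ADRA2B had no probe set under their symbol. Among 8 measured receptors for other ligands of the cAMP pathway, TSHR, the thyrotropin receptor, had the smallest P, with a difference of 1.29 (limma, unadjusted P = 0.082). It read 5.08, 5.47, 4.08 and 4.68 in NmatCpat lambs, against 2.98, 2.92, 5.52 and 2.71 in NmatNpat lambs. The single high NmatNpat lamb was animal 3, and without it the difference was 1.96 and passed P and fold (limma, unadjusted P = 7.7e-04, adjusted p = 0.64).

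GRK3 encodes a kinase that phosphorylates activated receptors and so desensitizes them. It read 6.10, 5.63, 5.35 and 5.41 in NmatCpat lambs, against 4.55, 4.54, 5.46 and 4.95 in NmatNpat lambs. NmatNpat animal 3 was the 1 lamb of its genotype within the NmatCpat range. The difference was 0.75 (interval 0.11 to 1.38; limma, unadjusted P = 0.027, adjusted p = 0.98; exact permutation test, p = 0.086). Its call was lost on omitting NmatCpat animal 1 (0.59), NmatCpat animal 2 (0.74), NmatNpat animal 1 (0.64) or NmatNpat animal 2 (0.63), and when NmatNpat animal 1 and NmatCpat animal 4 were both omitted (0.71). It was also lost with a trended robust variance (0.75) and with an offset of 16, where the difference of 0.52 fell short of 1.5-fold. GRK2, a kinase of the same kind, gave -0.67 on its brighter and 1.04 on its dimmer probe set, and the dimmer one passed P and fold. The 6 measured genes of this group had a median difference of 0.02.

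The 14 other G protein genes had a median difference of -0.04, and GNG10, a gamma subunit, had the smallest P, with 0.43 (limma, unadjusted P = 0.096). It was 0.28 without NmatNpat animal 2, and 0.59 and past both thresholds without NmatNpat animal 1. The dimmer GNG10 probe set pointed the other way, at -0.35 (limma, unadjusted P = 0.64). GNAO1, a G protein alpha subunit abundant in neurons, was picked after its values were seen for having the largest difference of the group, -1.53 (limma, unadjusted P = 0.12). It read 3.04, 5.62, 5.17 and 4.67 in NmatCpat lambs, against 8.33, 5.33, 4.63 and 6.33 in NmatNpat lambs, and its highest value was that of NmatNpat animal 1. The difference was -0.80 on leaving out that lamb, and -1.0 on leaving out NmatCpat animal 1 instead. The dimmer GNAO1 probe set, also highest in NmatNpat animal 1, gave a smaller difference of -0.59 (limma, unadjusted P = 0.54). The 7 measured genes of the adenylyl cyclase group had a median of -0.06. ADCY4 differed by 0.22 and ADCY6 by 0.08, and neither passed. ADCY3 had no probe set under its symbol.

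The 3 measured genes among the remaining protein kinase A subunits and inhibitors were all higher in NmatCpat lambs without passing, at 0.79 for PRKAR1B (0.48 without NmatNpat animal 3), 0.33 for PKIG and 0.17 for PRKAR2A. AKAP4, an anchoring protein of protein kinase A known from the sperm tail, read 5.80, 5.27, 6.21 and 6.12 in NmatCpat lambs, against 4.51, 4.73, 5.62 and 5.01 in NmatNpat lambs. Its difference was 0.88 (interval 0.17 to 1.6; limma, unadjusted P = 0.022, adjusted p = 0.98; exact permutation test, p = 0.057), with NmatNpat animal 3 above NmatCpat animal 2. AKAP4 was not called on omitting NmatCpat animal 3 (0.76), NmatCpat animal 4 (0.79), NmatNpat animal 1 (0.73) or NmatNpat animal 2 (0.80), or when NmatNpat animal 1 and NmatCpat animal 4 were both omitted (0.64). The median of the 7 measured anchoring proteins was -0.01. Of 15 listed phosphodiesterases 6 were measured, with a median of -0.04, and PDE4A, which degrades cAMP, had the smallest P (0.51; limma, unadjusted P = 0.067). It passed both thresholds without NmatNpat animal 2 (0.67).

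**Figure D5:**
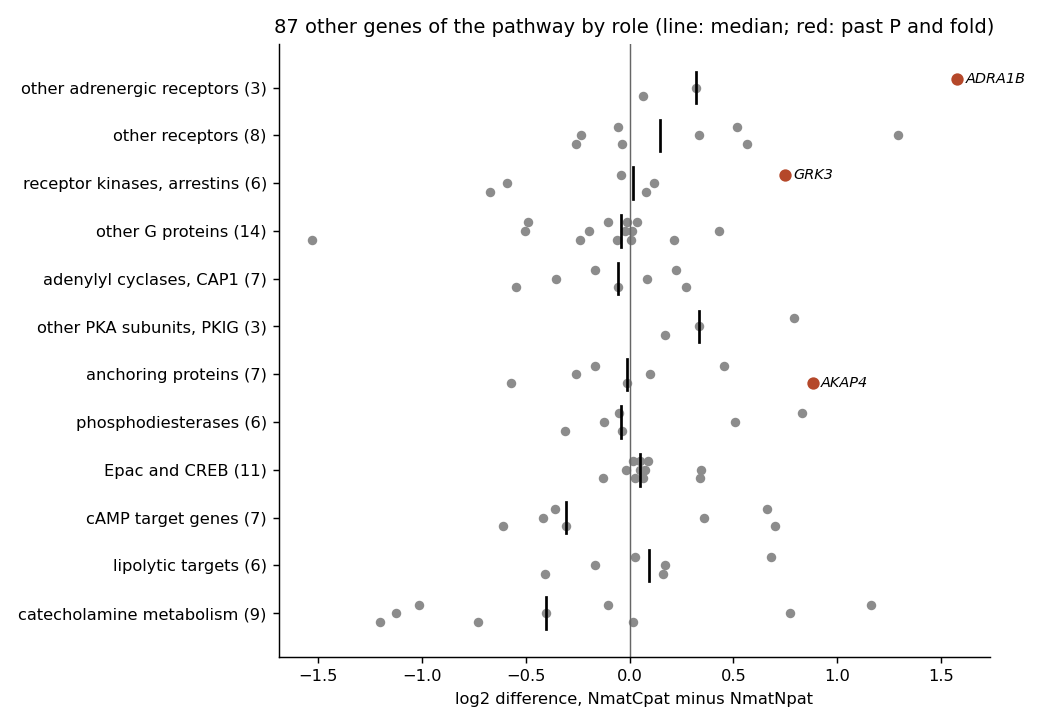
Difference in normalized log2 intensity, NmatCpat minus NmatNpat (horizontal axis), of 87 measured genes of the pathway by role, 1 point per gene on its brightest probe set, with the median of each role as a black line and the number of genes in brackets. The 3 genes past P and fold (ADRA1B, GRK3 and AKAP4, red) lie at 1.58, 0.75 and 0.88, and the role medians lie between -0.40 and 0.33.

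Downstream of cAMP, the Epac and CREB group was close to 0, with a median of 0.05 over 11 genes, or -0.0028 without NmatNpat animal 1. RAPGEF3, which encodes the cAMP-binding exchange factor Epac, differed by 0.06, CREB1, the cAMP response element binding protein, by 0.05, and its coactivator CRTC2 by 0.34 (0.18 without NmatCpat animal 4). Among the genes that cAMP induces, 7 of 11 were measured, with a median of -0.30. In all, 2 of the 87 pathway genes did not overlap between genotypes, or 2.30% beside 2.84% of all genes, and both belong to this group. FOS, an immediate early gene, read 12.00, 11.90, 11.96 and 11.93 in NmatCpat lambs, against 12.05, 12.17, 12.59 and 12.65 in NmatNpat lambs. Its difference of -0.42 had an interval of -0.85 to 0.02 (limma, unadjusted P = 0.058; exact permutation test, p = 0.0286, the lowest possible here), and the dimmer FOS probe set, at -0.78, passed P and fold. NR4A2, named after its values were seen, read 5.14, 6.02, 5.97 and 6.10 in NmatCpat lambs, against 6.11, 6.12, 6.88 and 6.56 in NmatNpat lambs. It differed by -0.61 (limma, unadjusted P = 0.068; exact permutation test, p = 0.0286), with the nearest lambs of the genotypes at 6.10 in NmatCpat and 6.11 in NmatNpat. NR4A2 was -0.39 without NmatCpat animal 1, and it passed P and fold above the median level and with the animal number as a block. These values are from the brightest of its 4 probe sets. The others gave -0.05, 0.26 and -0.87, and the genotypes overlapped on each. UCP1, the uncoupling protein of brown fat, differed by 0.66 without passing, and this was 0.36 without NmatNpat animal 1, 0.28 without NmatCpat animal 4 and -0.017 without both. PPARGC1A, a coactivator of mitochondrial genes, differed by 0.36 (0.22 without NmatNpat animal 3) and did not pass.

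Of the lipases and their partners 6 of 8 were measured. LIPE, hormone-sensitive lipase and a direct target of protein kinase A, read 12.62, 12.58, 12.23 and 12.56 in NmatCpat lambs, against 12.72, 12.87, 12.44 and 12.61 in NmatNpat lambs. The difference was -0.17 (interval -0.57 to 0.24; limma, unadjusted P = 0.37), which leaves out a change of 1.5-fold. The dimmest of its 4 probe sets, with 4.52 to 5.39 in NmatCpat lambs and 5.69 to 6.07 in NmatNpat lambs, gave -0.73 and passed P and fold, while the others gave 0.11 and -0.04. PNPLA2, adipose triglyceride lipase, differed by 0.68 (limma, unadjusted P = 0.12), passing without NmatNpat animal 2 (0.98), and its activator ABHD5 by 0.17. PLIN1, perilipin, had no probe set under its symbol.

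The genes that make, carry and break down catecholamines had a median difference of -0.40 over 9 measured genes, and none passed. Of these 9 genes, 6 were highest in NmatNpat animal 1, and without that lamb the median was 0.15, with 6 genes higher in NmatCpat lambs in place of 3. TH, tyrosine hydroxylase, which takes the first step of catecholamine synthesis, read 4.15, 5.81, 3.30 and 4.29 in NmatCpat lambs, against 10.21, 3.95, 3.95 and 3.96 in NmatNpat lambs. DBH, which makes noradrenaline from dopamine, read 6.21, 6.37, 6.29 and 5.56 in NmatCpat lambs, against 9.14, 5.14, 5.93 and 5.84 in NmatNpat lambs. Both were high in NmatNpat animal 1 alone. Their differences were -1.12 and -0.40 with all lambs and 0.44 and 0.47 without that lamb, so that the sign turned with it. GCH1, which makes the cofactor of TH, differed by 1.16 (limma, unadjusted P = 0.098), or 0.54 without NmatNpat animal 3, its lowest lamb, and MAOA, a monoamine oxidase, by -0.10.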

How the data were processed

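RNA from perirenal adipose tissue of 8 lambs was hybridized to 1 bovine Affymetrix array each. The authors processed the images with MAS5 (the sources used here give no version), and their methods describe background correction and quantile normalization. The deposited values are intensity on a linear scale, with a lowest value of 0.1. Their columns do not share quantiles, so log2 was taken here, followed by quantile normalization over 24128 probe sets. The deposited intensity values carry no detection calls used here. After removal of 112 control probe sets, limma 3.58.1 in R 4.3.3 (lmFit, eBayes, no covariates, Benjamini-Hochberg over 24016 probe sets) was fitted to all lambs. Calls used P of at most 0.05 and a fold over 1.5, the study's thresholds. The study names a commercial package but not its statistic. For single values an exact permutation test (two-sided, 70 arrangements of the lambs) was used. The limma fit was tested on simulated data.

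Symbols came from the platform annotation, which is old: 13292 probe sets have 1 symbol, 86 several and 10638 none listed. The brightest probe set by mean stood for a gene. The members and all gene lists were chosen with earlier results of these data known. Named were every probe set of a member, in each role of the pathway list the gene with the smallest P and those past P and fold, 15 genes regardless of their values, and the 5 genes most like the member with the smallest P. Alternatives changed the scaling (cyclic loess, centring on array medians, an offset of 16 before log2), the variance (not moderated, or trended and robust, or with array weights), the probe sets (above the median level, those for 1 transcript, or a gene's mean), or the lambs (a block for animal number, omitting each lamb, or 2 at once). The precision is limited by the number of arrays, 8. No genome sequence was used.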

Additional observations from a re-analysis of the deposited data

Results flagged for a closer look

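In 70 groups of 4 lambs, a single lamb far from the rest was sought. The mark was a gap to the nearest lamb that takes up most of the group's range. In all, 4 values were flagged, 2 of them in NmatNpat animal 1. The cut-off flags about 1 in 20 groups by chance when groups are independent and values are normally distributed. The groups here share the same lambs and are not independent, so the count cannot be judged against that rate. PRKACB on its dimmer probe set was 8.92 in NmatNpat animal 1, and 6.84 to 6.99 in the other NmatNpat lambs. TH was 10.2 in the same lamb, and 3.95 to 3.96 in the other NmatNpat lambs. TSHR was 5.52 in NmatNpat animal 3, and 2.71 to 2.98 in the other NmatNpat lambs. LIPE on its brightest probe set was 12.2 in NmatCpat animal 3, and 12.56 to 12.62 in the other NmatCpat lambs, a gap of a smaller size than the others. No cause was tested.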

How the results depend on the processing

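The PRKACB difference of -1.12 kept its sign in all 19 alternatives and lost its call in 7: without moderated variances (-1.12), without NmatNpat animal 1 and NmatCpat animal 4 together (-0.69), and in 5 of the 8 fits without 1 lamb, which ran from -1.40 to -0.69. Its adjusted p (limma) ran from 0.91 to 0.9996. The count of members called was accordingly 0 without moderation, 0 without those 2 lambs and 0 by adjusted p, and 0 to 2 with each lamb left out. The count of pathway genes was 1 above the median level (NR4A2), where fewer genes were tested and ADRA1B, GRK3 and AKAP4 were not. It was 1 without both lambs, 5 with the mean of a gene's probe sets and 0 by adjusted p. With each lamb left out it was 1 to 5 (1 without NmatCpat animal 3 and 5 without NmatNpat animal 2). Of all probe sets 943 were called, 626 without moderation, 244 above the median level and 0 by adjusted p. Without both lambs the sign turned for ADRB3 (-0.0066), PRKACA (-0.080), PRKAR1A (0.00067), DBH (0.65), RAPGEF3 (-0.048), TH (0.47) and UCP1 (-0.017). It also turned for PRKAR1A on median-centred arrays (0.040) and for PPARGC1A with the mean of its probe sets (-0.045). With each lamb left out, differences that took both signs ran from -0.031 to 0.29 for PRKACA, -0.044 to 0.027 for PRKAR1A, -0.11 to 0.40 for PRKAR2B, -0.042 to 0.26 for ADCY6, -0.071 to 0.14 for CREB1, -0.86 to 0.47 for DBH, -0.24 to 0.071 for MAOA, -0.039 to 0.17 for RAPGEF3 and -1.65 to 0.44 for TH. The cause was not tested. The labels do not say that the animal number pairs lambs, so the numbers were not taken as pairs. Deviations of same-numbered lambs from their genotype means correlated weakly (r of -0.01 to 0.05). NmatCpat animals 1, 2 and 3 each matched best the NmatNpat lamb of the same number, and NmatCpat animal 4 matched best NmatNpat animal 3. These values do not settle whether the numbers are pairs. With the number as a replicate block PRKACB stayed called at -1.12 (limma, adjusted p = 0.94), 1 member and 4 pathway genes were called, GRK3 was lost (0.75) and PRKAR1B (0.79) and NR4A2 (-0.61) were gained, and 1124 of all probe sets passed. Dim probe sets such as ADRB1 and ADRA2A limit what 8 arrays can show.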
